A study of Rattus norvegicus with 71 samples.

Results

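The 33 genes described here are markers of microglia and brain macrophages together with genes of the complement system, taken by symbol from the count table of 71 rat brains at postnatal day 2 (PND2). All 33 were found among the 17494 genes of the table. Microglia are the resident macrophages of the brain. They take their place early in development, sense neurons and injury through receptors such as the fractalkine receptor and purinergic receptors, and clear dying cells and surplus synapses. Complement is a cascade of proteins that tags targets for removal. C1q starts its classical arm, often from antibody bound to a surface, C3 is the central component that is cleaved onto the target, and receptors for C3 fragments on microglia take up what has been tagged.

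The animals were wild-type Sprague-Dawley pups of both sexes. Their dams had been immunised with peptide epitopes of proteins that are bound by maternal autoantibodies related to autism (MARA), in Freund's adjuvant, and the control dams received adjuvant with saline. There were 47 MARA-AB exposed offspring from 20 litters and 24 saline controls from 7 litters. Each exposed pup carried the label of 1 of 4 autoantibody patterns, CRMP1+CRMP2 (8 pups, 4 litters), LDHA/B+CRMP1+STIP1 (25 pups, 9 litters), CRMP1+GDA (6 pups, 3 litters) or STIP1+NSE (8 pups, 4 litters). RNA came from 1 coronal slice that held the hippocampus with cortical and subcortical tissue, so that every cell type in the slice contributed, and poly-A libraries were sequenced to totals of 24880182 to 36234952 counts. The study ran in 2 experimental batches. In batch 1 there were 16 LDHA/B+CRMP1+STIP1 pups beside 12 controls, while batch 2 consisted of 12 other controls and all 4 patterns, so 3 of the patterns can be compared with controls only through batch 2 or across batches. Littermates shared a dam and a treatment, and were tested as separate samples in the main fits. In whole slices, fewer cells of a type and less RNA per cell cannot be told apart.

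The members were expressed at a low level. Levels as CPM, the counts of a gene scaled to an equal library total, had medians over the 71 animals from 0.280 for C5ar1 to 19.4 for Csf1r. The defining genes of microglia were present: Cx3cr1 reached 1 CPM in 66 of 71 animals, P2ry12 in 69, and Csf1r, C1qa, C1qb and C1qc in all 71. Lymphoid markers were almost absent, with 6 of the 7 genes found having a median of 0 CPM and a highest summed level of 0.936 CPM. Blood myeloid markers summed to between 3.78 and 11.3 CPM, and 4 of 12 (Mpo, Elane, Ccr2 and Mmp8) had a median of 0. Markers of macrophages at the borders of the brain summed to between 1.11 and 30.02 CPM, with Ms4a7 and Cd209 at a median of 0. The slices also held markers of tissue at the surface of the brain and of blood, in amounts that varied: meningeal markers summed to 133 to 1555 CPM, choroid plexus markers to 4.43 to 3405 CPM and erythroid markers to 259 to 2192 CPM.

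On the RPKM scale, where levels of different genes can be set side by side because counts are divided by exon length, the highest members in controls were Aif1 at 6.34 ± 1.88 RPKM (mean ± SD, n = 24), C1qb at 6.09 ± 2.5 and the cathepsin Ctss at 5.95 ± 2.15. Tyrobp, the adaptor that carries the signal of Trem2, was at 5.39 ± 1.88 RPKM, C1qa at 4.86 ± 2.2, Csf1r, the receptor on whose ligands microglia depend for survival, at 4.67 ± 1.7, and C1qc at 4.62 ± 1.95. The lowest members were C3 at 0.109 ± 0.0631 RPKM, the haemoglobin scavenger receptor Cd163 at 0.130 ± 0.117, the C5a receptor C5ar1 at 0.136 ± 0.0818 and the lipopolysaccharide receptor Tlr4 at 0.145 ± 0.103. Thus the starter of the classical arm lay among the highest genes of the group, whereas C3 had the lowest level of all. In this order of 33 genes, none of the 32 gaps between neighbours was larger than the larger of the SDs over controls of the genes beside it.

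The 3 C1q genes lie side by side in the rn7 assembly on chromosome 5, all on the minus strand, C1qb at 149118843 to 149124392, C1qc at 149127424 to 149130732 and C1qa at 149133635 to 149136482. P2ry13 and P2ry12 are neighbours on chromosome 2, at 143471884 to 143472894 and 143482465 to 143485412. The promoters below belong to the members on which the comparisons turn, namely Cd68 and Mrc1, which differed in 1 exposed group, C3, which differed between batches, and C1qa and C1qb, whose levels went together across litters. They are the 250 bases before the start of each gene, from RefSeq in the GRCr8 build, which is not the build of the counts, read 5′ to 3′ on the strand of the gene. Capitals mark GAGGAA or its complement TTCCTC, the core of the site of PU.1, the myeloid transcription factor that Spi1 encodes.
Cd68 (chr10:54882442-54882691, minus strand): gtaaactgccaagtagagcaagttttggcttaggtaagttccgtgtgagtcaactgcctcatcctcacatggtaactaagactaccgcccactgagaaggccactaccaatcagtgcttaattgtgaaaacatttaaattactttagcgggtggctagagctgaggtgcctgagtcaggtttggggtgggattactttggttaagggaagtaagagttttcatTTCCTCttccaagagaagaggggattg
Mrc1 (chr17:82157475-82157724, plus strand): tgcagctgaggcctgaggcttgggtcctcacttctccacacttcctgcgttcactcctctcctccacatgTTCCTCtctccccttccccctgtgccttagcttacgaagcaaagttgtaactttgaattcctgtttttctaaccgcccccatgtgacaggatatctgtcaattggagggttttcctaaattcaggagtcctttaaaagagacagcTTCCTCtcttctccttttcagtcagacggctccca
C1qa (chr5:154419934-154420183, minus strand): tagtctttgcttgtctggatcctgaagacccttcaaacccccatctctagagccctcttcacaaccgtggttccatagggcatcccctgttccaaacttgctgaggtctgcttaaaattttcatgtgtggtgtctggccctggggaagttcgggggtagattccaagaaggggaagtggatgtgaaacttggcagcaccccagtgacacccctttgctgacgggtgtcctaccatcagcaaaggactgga
C1qb (chr5:154407828-154408077, minus strand): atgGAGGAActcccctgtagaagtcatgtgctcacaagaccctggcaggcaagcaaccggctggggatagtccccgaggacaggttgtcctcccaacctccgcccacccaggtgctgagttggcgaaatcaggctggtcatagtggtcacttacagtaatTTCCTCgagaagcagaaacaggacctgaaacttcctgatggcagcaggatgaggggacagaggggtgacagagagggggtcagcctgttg
C3 (chr9:2201340-2201589, minus strand): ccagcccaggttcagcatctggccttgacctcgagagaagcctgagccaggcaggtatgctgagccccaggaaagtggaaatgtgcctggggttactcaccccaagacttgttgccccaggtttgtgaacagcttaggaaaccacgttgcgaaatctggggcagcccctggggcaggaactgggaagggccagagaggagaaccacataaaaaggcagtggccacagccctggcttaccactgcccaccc
Of the 25 members that had an entry, 16 (64%) held these letters on either strand in this window, against 23.3% of all 33469 promoters. Cd68 held 1 match, Mrc1 and C1qb held 2 each, and C1qa and C3 held none. It was 1 of 8 motifs searched on both strands of this window, and it was picked for display after their counts were seen. The others that overlap it were GAGGAAG, in 11 of 25 members (44%) against 10.2% of all promoters, GAGGAAGT, in 2 (8%) against 2.04%, AGGAAGT, in 7 (28%) against 7.08%, and GGAAGT, in 12 (48%) against 19.2%. TTTCAC and GAAAGTGA, letters of interferon-response elements, were in 3 (12%) against 11.5% and in 0 against 1.31%, and the TATA box letters TATAAA were in 5 (20%) against 12.9%. These are counts of letters, with no test, and a window with no match says only that the letters are not written there. P2ry12, Tmem119, Aif1, Itgb2, Tyrobp, Spi1, C1qc and C5ar1 had no entry.

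The members varied widely between animals. The coefficient of variation over all 71 ranged from 31.6% for Tyrobp to 89.1% for Cd163. Cx3cr1 ran from 0.228 to 6.36 CPM, Mrc1 from 0.356 to 13.9 CPM and Spp1 from 1.13 to 17.2 CPM. Counting error sets a floor to this. For Csf1r, with a median count of 527, it came to 6.16% against an observed variation of 35.2%, but for C3, with a median count of 16, it came to 35.4% against 61.9%, and for C5ar1, with a median of 8, to 50.0% against 68.2%. The median SD of the 32 members that passed the expression filter was 0.635 on the log2 CPM scale, compared with 0.528 for the 1335 genes of like level and 0.225 for all 12477 genes tested.

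**Figure D1:**
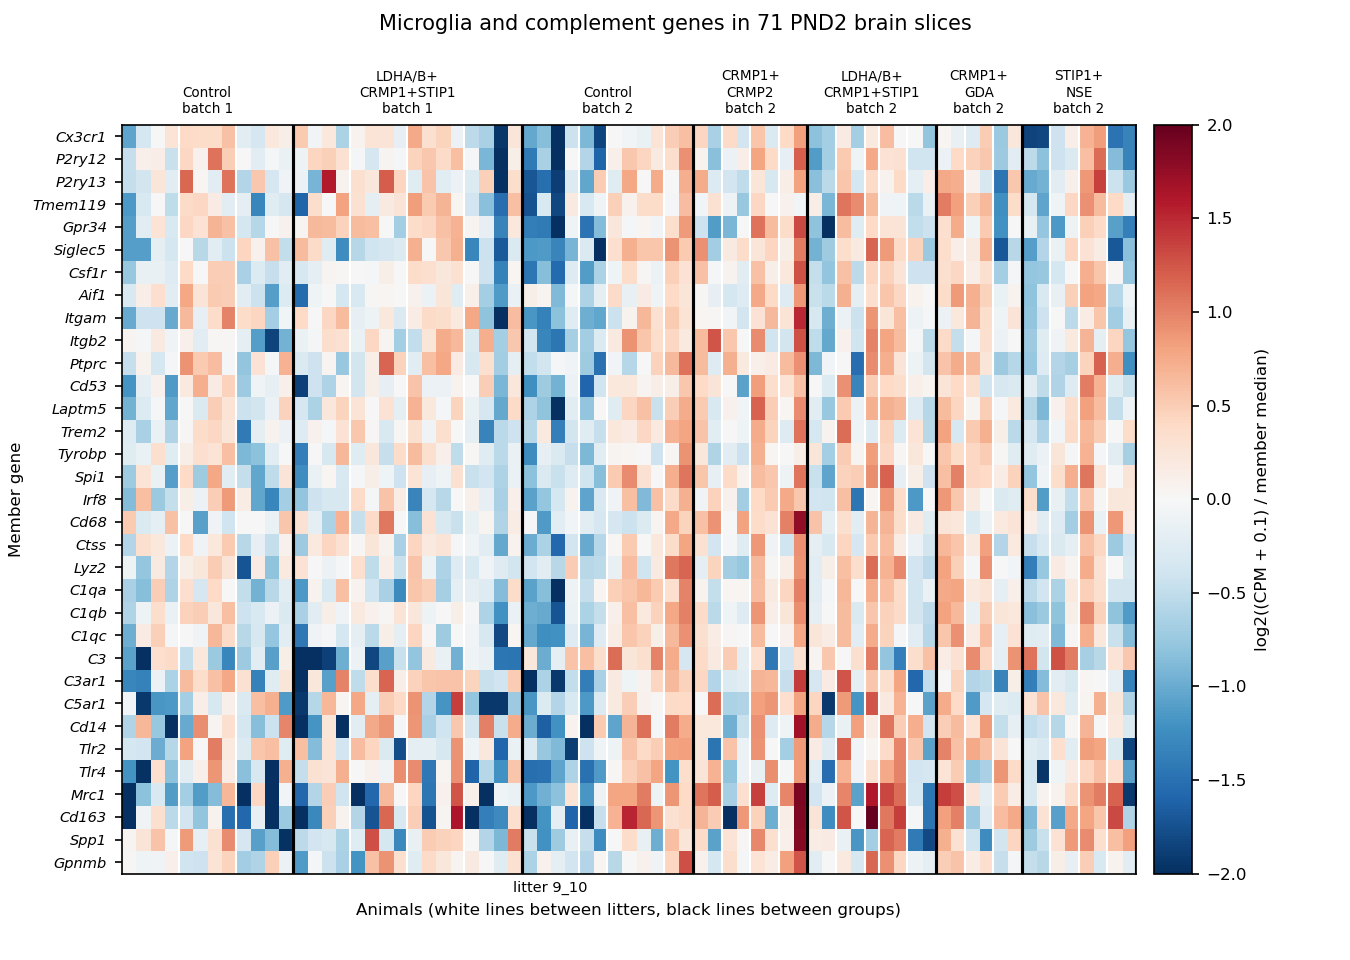
Level of each of the 33 members (rows) in each of the 71 animals (columns), as the log2 ratio to the median of that member over all animals, with 0.1 CPM added. Columns are grouped by batch and autoantibody pattern and then by litter; the 4 pups of control litter 9_10 are low in most rows, and high and low columns occur in every group.

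Much of this spread lay between litters. Litter within batch and pattern took a median of 47.3% of the sum of squares of a member, against 35.9% for all genes, and the intraclass correlation of littermates had a median of 0.369, against 0.267 for all genes and 0.139 for genes of like level. C1qb had the highest value, 0.633, followed by Siglec5 at 0.590 and Csf1r at 0.581. Mrc1, the mannose receptor that marks border macrophages, had the lowest, 0.0543. Batch, in contrast, took a median of 1.40% for the members, against 10.2% for all genes and 12.5% for genes of like level. The members with the largest share for batch were C3 (32.2%), Mrc1 (18.6%), Spi1 (14.8%) and Cd163 (10.9%). These shares describe the samples and were not tested.

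**Figure D2:**
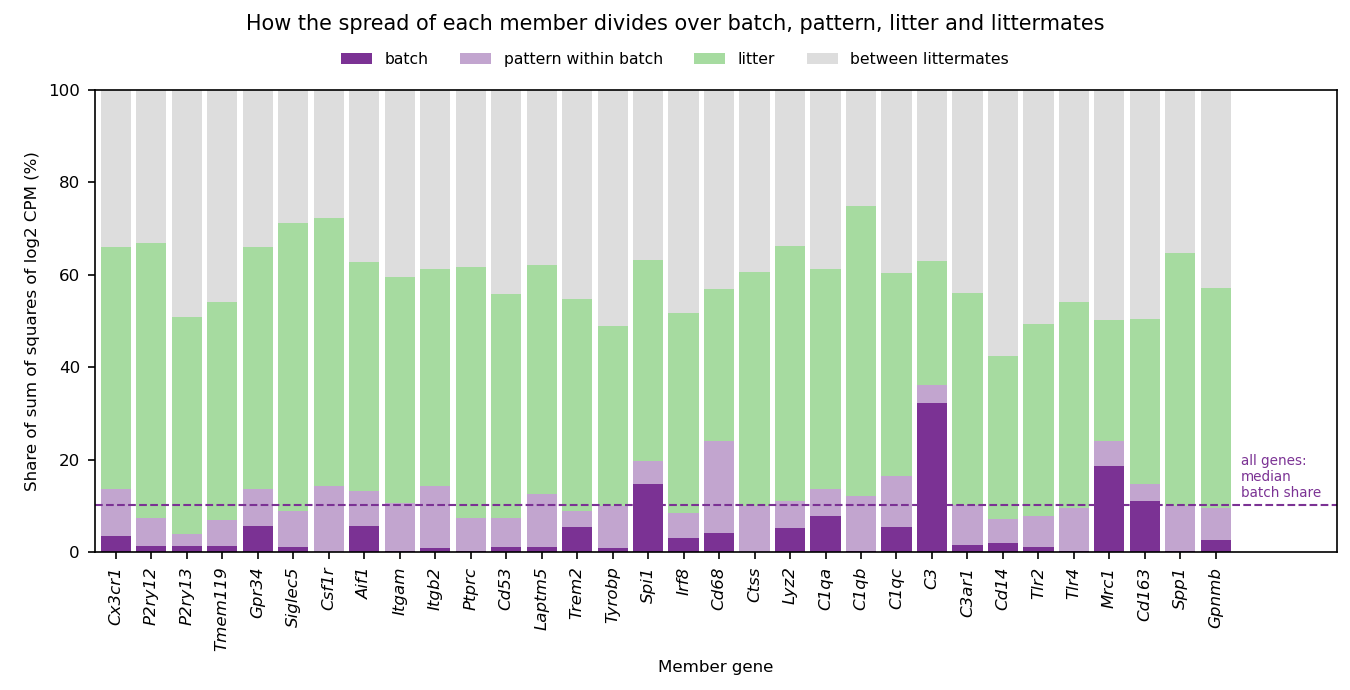
Share (%) of the sum of squares of log2 CPM of each of the 32 members over the filter that fell to batch, to pattern within batch, to litter within pattern and batch, and to littermates. The dashed line is the median batch share of all genes, 10.2%; C3, Mrc1, Spi1 and Cd163 exceed it, and C3 is highest at 32.2%.

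The litters stood apart as wholes. Litter 9_10, 4 female controls of batch 2, had a summed level of the 33 members of 62.6 CPM on average (43.1 to 90.5 in its pups), was the lowest of the 27 litters for 11 members and was among the lowest 3 for 24. Control litter 9_15 was among the lowest 3 for 15 members, with a mean sum of 66.3 CPM, and STIP1+NSE litter 9_12 for 12 members, with 69.4 CPM. At the other end, CRMP1+CRMP2 litter 9_6 had a mean sum of 175 CPM (120 and 231 CPM in its 2 pups), the single pup of LDHA/B+CRMP1+STIP1 litter 9_24 had 166 CPM, and control litter 9_5 had 160 CPM and was among the highest 3 litters for 15 members. Controls and exposed litters thus occurred at both ends, and the 4 control litters of batch 2 spanned almost the whole range. Since litter 9_10 was low for most members, each comparison with all controls or between batches below was also made without litter 9_10, a choice made after its values were seen.

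Members that form 1 complex, act in 1 signalling unit or mark the same cells were compared across the 27 litters, in 9 pairs. Litters were low or high for many members at once, with 9_10 among the lowest 3 for 24 members and 9_24 among the highest 3 for 21. Other pairs of members were not computed, so these values of r do not set partners apart from other members. C1qb and C1qc, subunits of the same protein, had a Pearson r of 0.907 (Spearman's rho 0.930, permutation p = 1e-05 for both, the smallest that 100000 permutations can give, adjusted p = 1.8e-05), with 0.906 in the 7 litters of batch 1 and 0.931 in the 20 of batch 2. C1qa and C1qb had an r of 0.852 (rho 0.863, adjusted permutation p = 1.8e-05 for both), which was 0.438 in batch 1 and 0.925 in batch 2. The homeostatic receptors Cx3cr1 and P2ry12 had an r of 0.890 (rho 0.929, adjusted permutation p = 1.8e-05), and the scavenger receptors Mrc1 and Cd163 one of 0.866 (rho 0.875, adjusted permutation p = 1.8e-05). Each of these stayed above 0.8 without the 2 litters farthest from the median of the first gene (0.878, 0.808, 0.915 and 0.834). Spi1 and Csf1r, the receptor gene that PU.1 is known to drive, had an r of 0.797 (rho 0.836, adjusted permutation p = 1.8e-05; 0.942 in batch 1, 0.867 in batch 2, 0.751 without the 2 farthest litters).

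The receptor Trem2 and its adaptor Tyrobp were less closely related, with an r of 0.593 (rho 0.637, adjusted permutation p = 0.00135 and 0.000579), 0.706 in batch 1, 0.552 in batch 2 and 0.551 without the 2 farthest litters. Itgam and Itgb2, the subunits of complement receptor CR3, had an r of 0.665 (rho 0.703, adjusted permutation p = 0.000285 and 0.000105), but only 0.0423 in batch 1 against 0.803 in batch 2, and 0.579 without the 2 farthest litters. Spp1 and Gpnmb, which mark reactive and axon-tract microglia and are also made by other cells, had an r of 0.428 (rho 0.502, adjusted permutation p = 0.0296 and 0.00909), 0.563 in batch 1, 0.412 in batch 2 and 0.402 without the 2 farthest litters. C3 and the receptor of its fragment, C3ar1, were the exception: r was -0.142 (rho -0.279, adjusted permutation p = 0.484 and 0.158), 0.491 in batch 1, -0.283 in batch 2 and -0.211 without the 2 farthest litters. Both had low counts, with counting errors at the median count of 35.4% for C3 and 31.6% for C3ar1, which limits this r.

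**Figure D3:**
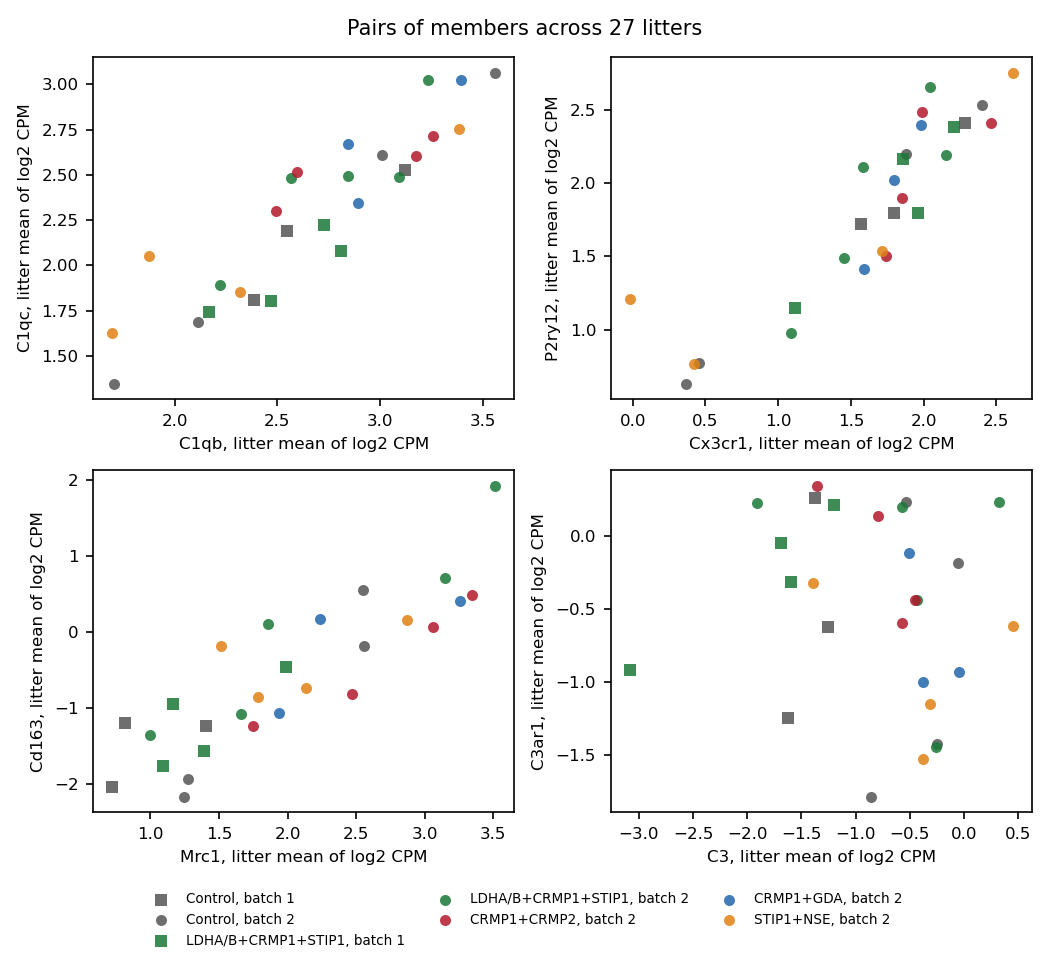
Litter means of log2 CPM of 4 pairs of members over 27 litters (squares batch 1, circles batch 2, colours the autoantibody patterns). C1qb with C1qc (r = 0.907), Cx3cr1 with P2ry12 (0.890) and Mrc1 with Cd163 (0.866) follow a line through all groups, whereas C3 with C3ar1 (-0.142) does not.

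The remaining members had medians over all 71 animals, with lowest and highest pup, as follows. Of the other sensors, Gpr34, a receptor for a lysophospholipid, was at 2.46 (0.0759 to 6.26) CPM, Tmem119, a membrane protein of settled microglia, at 1.87 (0.456 to 4.04), the sialic acid receptor Siglec5 at 1.68 (0.281 to 3.87) and P2ry13 at 0.687 (0.0652 to 2.26). General myeloid genes were led by Laptm5 at 5.43 (1.14 to 12.4) CPM and Aif1 at 4.06 (1.33 to 7.46) CPM, followed by Tyrobp at 2.98 (1.1 to 5.66), Trem2, the lipid receptor that pairs with it, at 2.12 (0.738 to 4.72), the tetraspanin Cd53 at 1.69 (0.391 to 3.54), Itgam at 1.69 (0.326 to 5.02), Itgb2 at 1.21 (0.262 to 3.07) and the leukocyte phosphatase Ptprc at 1.17 (0.343 to 2.78). The transcription factors that specify the lineage were low, Spi1 at 1.8 (0.704 to 4.22) CPM and Irf8 at 1.29 (0.411 to 2.44) CPM. Of the lysosomal genes, Ctss was at 8.09 (2.66 to 15.4) CPM and the lysozyme Lyz2 at 3.27 (0.914 to 7.46) CPM. The receptors of the complement fragments were C3ar1 at 0.718 (0.0702 to 2.06) CPM and C5ar1 at 0.280 (0 to 0.889) CPM. The receptors for bacterial patterns were also low, Tlr2 at 0.788 (0.138 to 1.93) CPM, the coreceptor Cd14 at 0.655 (0 to 2.32) and Tlr4 at 0.581 (0.0655 to 1.25). Gpnmb was at 5.27 (2.25 to 13.1) CPM. Every library held counts of the 3 C1q chains, and the members with a count of 0 in any library were C5ar1 (5 of 71), C3 (3), Cd163 (3) and Cd14 (2).

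The first comparison asked whether the members differed between all MARA-AB exposed offspring and saline controls. None of the 32 members tested passed an FDR of 0.1 in edgeR's quasi-likelihood test with the first surrogate variable as covariate, where 4 of 12477 genes did (0.0321%). C5ar1 was not tested because it did not reach 1 CPM in 8 samples. At an unadjusted p under 0.05 there were 4 members (12.5%, against 10.3% of all genes), all higher in the exposed group. DESeq2 called no member either and had 5 members at that threshold. The members at that level were Mrc1, at 0.54 (SE 0.23, adjusted p = 0.410) on the log2 scale, the integrin chain Itgb2, 0.35 (SE 0.16, adjusted p = 0.431), the lysosomal Cd68, 0.29 (SE 0.14, adjusted p = 0.456), and the lysosomal membrane gene Laptm5, 0.28 (SE 0.13, adjusted p = 0.465). Of the 32 members, 29 had a positive value, with a median of 0.14 against 0.00 for all genes.

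Markers of other tissues were also positive in this comparison. All 10 choroid plexus markers tested were positive, with a median log2 fold change of 0.85 and 7 at an unadjusted p under 0.05, as were 10 of 11 meningeal markers with a median of 0.36, all 4 border macrophage markers with 0.42 and all 9 endothelial markers with 0.11. The 3 pineal markers tested were positive and 1 was called, Tph1 (4.07, SE 0.89, adjusted p = 0.0999). Tph1 did not pass the filter in the fit of controls alone. Batch 2 held 12 of the 24 controls and all CRMP1+CRMP2, CRMP1+GDA and STIP1+NSE pups. Between the batches of controls all 10 choroid plexus markers were called higher in batch 2, with a median log2 fold change of 3.42. Exposure and batch are thus not fully apart in these values. The part of these markers in the values of the members was not tested.

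The values of the members depended on which control litter was left out. Without litter 9_10, 21 of 32 members were positive with a median of 0.04, and none had an unadjusted p under 0.05. C1qa went from 0.09 to -0.06, C1qc from 0.01 to -0.14, Cx3cr1 from 0.10 to -0.05 and P2ry12 from 0.05 to -0.10 on the log2 scale. Without IgG2, 31 of 32 were positive with a median of 0.24, and 11 had an unadjusted p under 0.05 (1154 of 12464 genes). Without 9_5 it was 31 of 32, 0.23 and 8 (1510 of 12470 genes). Without 9_25 it was 30 of 31, 0.23 and 6 (1275 of 12456 genes). Without 9_15, RNA4 or IgG1 the median was 0.10, 0.11 or 0.12. The 95% intervals take pups as separate samples, although littermates were correlated (intraclass correlation of C1qb 0.633), so as intervals for litters they are too narrow. They were -0.27 to 0.26 for C1qb, -0.18 to 0.35 for C1qa, -0.25 to 0.45 for Cx3cr1, -0.28 to 0.38 for P2ry12 and -0.03 to 0.47 for Csf1r. For Cd163 the interval ran from -0.01 to 1.23, and for Spp1 from -0.12 to 0.64.

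The second set of comparisons took each autoantibody pattern against the controls of both batches. All share those controls. In CRMP1+CRMP2 offspring, Cd68 and Mrc1 were higher, and they were the only 2 of 32 members called (6.25%), where 1445 of 12691 genes were called (11.4%). The share of members called was thus not above that of all genes. The calls of all genes were 613 higher and 832 lower, or 879 and 441 with total counts as the only scaling. At an unadjusted p under 0.05, 4 members (12.5%) stood against 24.4% of all genes.

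Cd68, a glycoprotein of the lysosomes of phagocytes, was at 1.44 CPM at the lowest, 2.41 at the median and 5.17 at the highest of the 8 CRMP1+CRMP2 pups. The 12 controls of batch 2 ran from 0.606 to 2.5 CPM with a median of 1.23, and the 12 of batch 1 from 0.630 to 2.22 with a median of 1.4. All 8 exposed pups lay above the median of the batch 2 controls and 4 of them above every such control, but the groups overlapped. Relative to all 24 controls Cd68 was higher by a log2 value of 0.90 (SE 0.21, adjusted p = 0.0148). It kept an adjusted p below 0.1 with batch and sex as covariates (0.91, adjusted p = 0.0527) and without control litter 9_10 (0.82, adjusted p = 0.0191), but not without CRMP1+CRMP2 litter 9_6 (0.65, adjusted p = 0.258) or with litter as a random effect (0.82, adjusted p = 0.137), in batch 2 alone (0.89, adjusted p = 0.101) or with counts summed per litter (0.84, adjusted p = 0.392). In the other groups of batch 2 the median Cd68 level was 1.82 (1.21 to 2.37) CPM in LDHA/B+CRMP1+STIP1, 1.68 (1.18 to 1.76) in CRMP1+GDA and 1.45 (0.852 to 2.77) in STIP1+NSE, and in batch 1 it was 1.37 (0.757 to 3.11) in LDHA/B+CRMP1+STIP1, the brackets giving lowest and highest pup.

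Mrc1 encodes the mannose receptor of perivascular and meningeal macrophages. It was at 2.3, 7.62 and 13.9 CPM at the lowest, median and highest CRMP1+CRMP2 pup, and at 1.6, 3.97 and 7.71 CPM in the batch 2 controls. Of the 8 exposed pups, 6 lay above the median of these controls and 4 above all of them. Relative to all 24 controls Mrc1 was higher by a log2 value of 0.91 (SE 0.33, adjusted p = 0.0948). The call was lost without litter 9_1 (0.67, adjusted p = 0.268), without litter 9_6 (0.60, adjusted p = 0.601), without control litter 9_10 (0.77, adjusted p = 0.120), with batch and sex as covariates (0.71, adjusted p = 0.290), with the first 2 principal components (0.33, adjusted p = 0.510) and in batch 2 alone (0.68, adjusted p = 0.226). It was also lost with no filter on low counts (adjusted p = 0.121), with litter as a random effect (adjusted p = 0.304) and with counts summed per litter (adjusted p = 0.392). Among the remaining groups Mrc1 had a median of 2.01 (0.492 to 5.93) CPM in the controls and 3.4 (0.356 to 9.0) CPM in LDHA/B+CRMP1+STIP1 of batch 1, and 3.39 (1.29 to 11.4) in LDHA/B+CRMP1+STIP1, 4.85 (3.19 to 9.82) in CRMP1+GDA and 4.36 (0.890 to 8.46) in STIP1+NSE of batch 2.

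**Figure D4:**
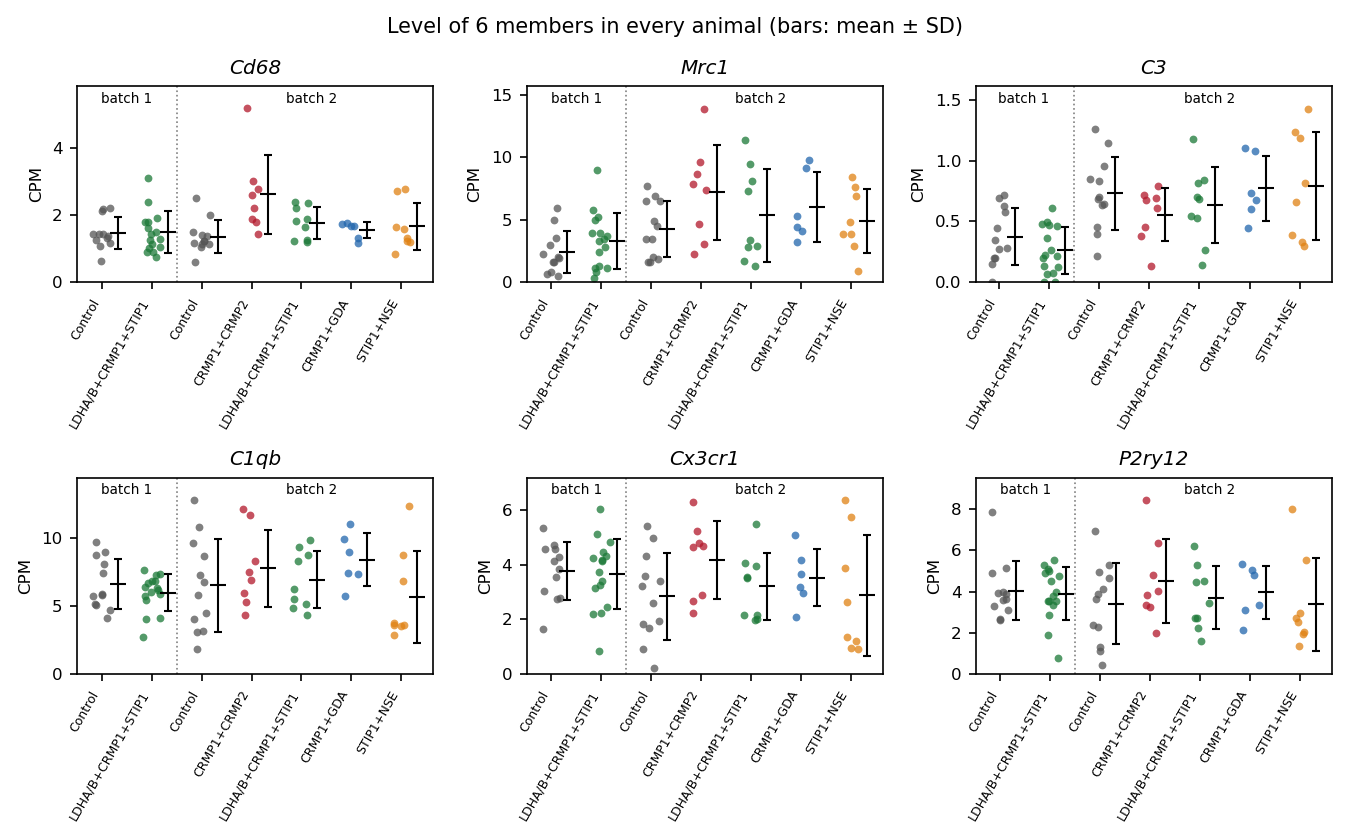
Level of 6 members in CPM in every animal, by autoantibody pattern and batch, with mean ± SD beside each group and points spread sideways only to be seen. All 8 CRMP1+CRMP2 pups lie above the median Cd68 level of the batch 2 controls, 1.23 CPM, with 1 pup at 5.17 CPM; the groups of the other genes overlap, and the C3 level of controls has a median of 0.313 CPM in batch 1 and 0.695 CPM in batch 2.

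Taken by litter, since the dam was immunised, neither difference passed the exact test. The mean Cd68 level was 2.49, 4.09, 2.02 and 1.84 CPM in the 4 CRMP1+CRMP2 litters and 2.25, 1.15, 1.18 and 1.22 CPM in the 4 control litters of batch 2, so that 1 control litter, 9_5, lay among the exposed ones. The difference of litter-mean log2 CPM was 0.80 (exact two-sided permutation p = 0.0857, adjusted p = 0.171). For Mrc1 the litters were at 8.30, 10.6, 3.50 and 6.36 CPM against 5.90, 2.5, 2.52 and 6.03 CPM, a difference of 0.75 (exact two-sided permutation p = 0.229, adjusted p = 0.229). With 4 litters against 4 the smallest p is 0.0286.

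Markers of other tissues moved with this group. The border macrophage markers that passed the filter were all 5 positive, with Lyve1 called (log2 fold change 1.02, SE 0.37, adjusted p = 0.0948), and summed to a median of 13.4 (7.45 to 30.02) CPM in CRMP1+CRMP2 against 8.36 (2.51 to 16.2) CPM in batch 2 controls. Meningeal markers were positive in 10 of 11 with 1 called (Fmod, 0.89, SE 0.26, adjusted p = 0.0426), and their summed levels were 935 (381 to 1555) and 653 (284 to 1045) CPM. Choroid plexus markers were called in 9 of 10, all higher (Otx2, 1.54, SE 0.37, adjusted p = 0.0173, and Slc4a5, 1.96, SE 0.53, adjusted p = 0.0320), with summed levels of 1187 (205 to 3405) and 731 (140 to 2976) CPM. Of 8 pineal markers 7 were tested, and all 7 were called higher. Otx2 is on both of these lists. Only 2 of the 8 pineal markers passed the filter in the fit of controls alone. The others were tested only because of counts in the CRMP1+CRMP2 pups, so this count was not independent of the filter. Blood myeloid markers were called in 0 of 4, with sums of 7.38 (4.82 to 9.95) and 6.26 (3.86 to 9.46) CPM, and erythroid markers in 1 of 7. These calls take all 24 controls, 12 of them from batch 1, whereas the summed levels are those of the batch 2 controls. The CRMP1+CRMP2 pups were all in batch 2. Between the batches of controls all 10 choroid plexus markers were called higher in batch 2, with a median log2 fold change of 3.42. Exposure and batch are thus not fully apart in these calls. The part of these markers in the levels of Cd68 and Mrc1 was not tested.

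The other members had these values in CRMP1+CRMP2. Among the 7 surface sensors and receptors of microglia all were positive, with a median log2 fold change of 0.36, from 0.02 for the purinergic receptor P2ry13 and 0.03 for Tmem119 to 0.49 (SE 0.22, adjusted p = 0.172) for Csf1r. Of the 8 general myeloid genes all were positive, with a median of 0.35, and Itgb2 was at 0.64 (SE 0.27, adjusted p = 0.137). No complement member was called. C1qa was at 0.15 (SE 0.24, adjusted p = 0.709), C1qb at 0.13 (SE 0.24, adjusted p = 0.767), C1qc at 0.18 (SE 0.22, adjusted p = 0.625) and C3 at -0.24 (SE 0.35, adjusted p = 0.693). Over all 32 members 29 were positive and the median was 0.33, against 0.01 for all genes. Without control litter 9_10 these were 19 and 0.14, and with the first 2 principal components in place of the surrogate variable they were 17 and 0.00.

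**Figure D5:**
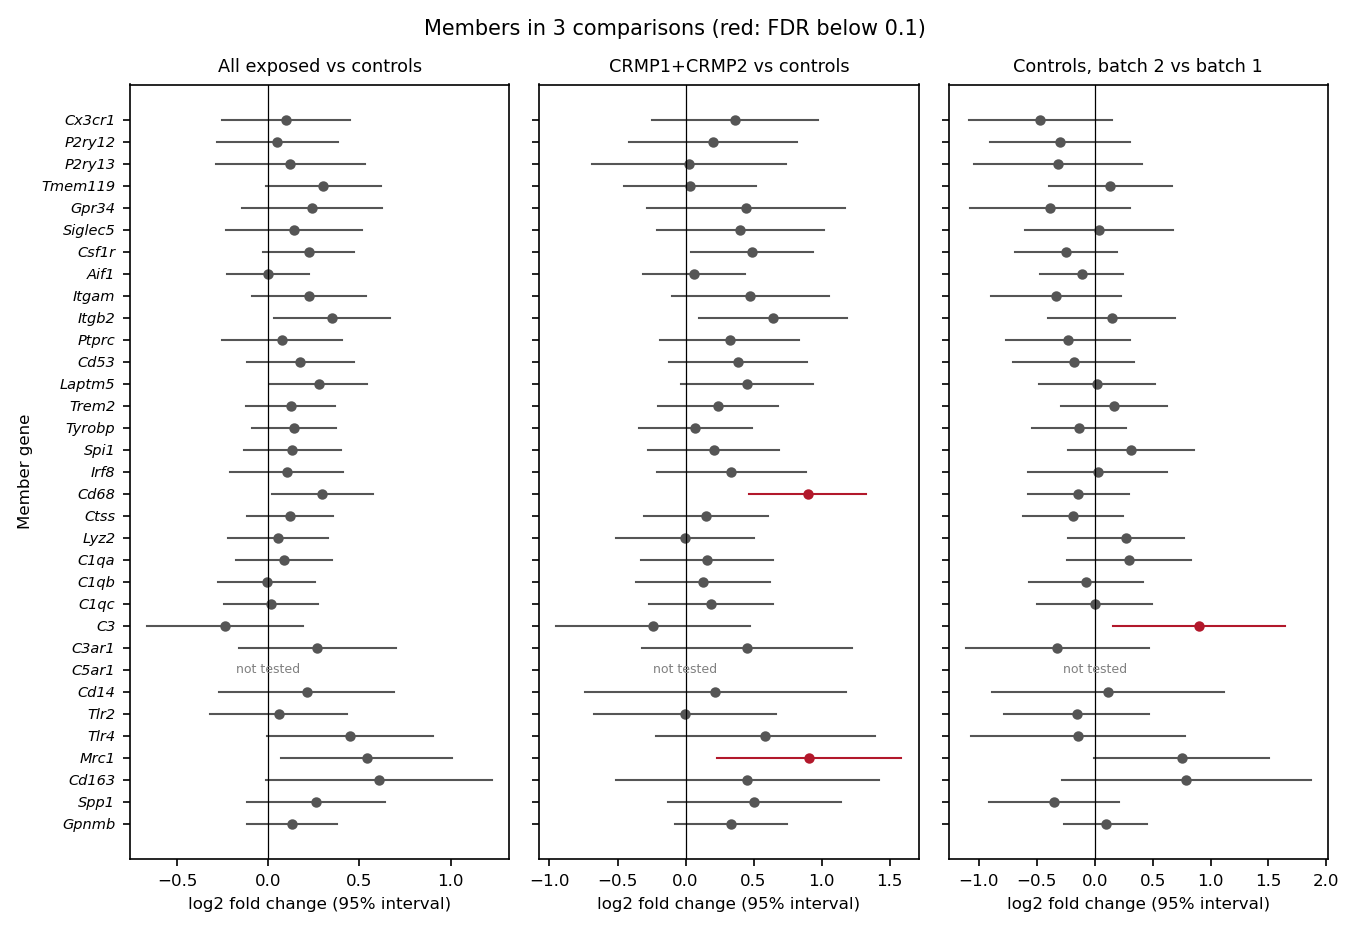
Log2 fold change of each member with its 95% interval in all exposed against controls, in CRMP1+CRMP2 against controls and in batch 2 against batch 1 of the controls; members with an FDR below 0.1 are red. Cd68 and Mrc1 are red in the second panel and C3 in the third, and none is red in the first.

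No member was called in LDHA/B+CRMP1+STIP1, CRMP1+GDA or STIP1+NSE. In LDHA/B+CRMP1+STIP1, 2 of 12700 genes were called (0.0157%), and Cd163 at 0.86 (SE 0.39, adjusted p = 0.647) and Tmem119 at 0.37 (SE 0.19, adjusted p = 0.695) were the only members with an unadjusted p under 0.05. DESeq2 called no member either, with 2 at that level. Of the 32 members, 28 were positive, with a median of 0.14, or 22 and 0.05 without control litter 9_10. In CRMP1+GDA, 0 of 12641 genes were called by edgeR (0%) and 0 by DESeq2, with 462 genes (3.65%) but no member at an unadjusted p under 0.05. There 29 members were positive with a median of 0.15, or 14 and -0.01 without control litter 9_10. Both values were higher with batch and sex as covariates (32 positive, median 0.34, 1 at an unadjusted p under 0.05), in batch 2 alone (32, 0.41, 2) and without CRMP1+GDA litter 9_8 (30, 0.36, 4). In STIP1+NSE, 6 of 12660 genes were called (0.0474%) and no member had an unadjusted p under 0.05, with edgeR or with DESeq2, which called no member. Of the 6 genes called, 4 were pineal markers, all higher, from 7 pineal markers tested. Only 2 pineal markers passed the filter in the fit of controls alone, so most of these were tested only because of counts in STIP1+NSE pups.

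The members had no common direction in STIP1+NSE. The median was -0.02 with 15 of 32 positive, but it was 0.07 with 22 of 32 positive under batch and sex as covariates, 0.08 with 22 of 31 in batch 2 alone, 0.10 with 22 of 32 without litter 9_12 and -0.32 with 3 of 32 without litter 9_2. In the fit to all animals 4 of the 5 complement members tested had a negative value, C3ar1 -0.38 (SE 0.40, adjusted p = 1.000), C1qb -0.34 (SE 0.29, adjusted p = 1.000), C1qa -0.31 (SE 0.26, adjusted p = 1.000) and C1qc -0.26 (SE 0.26, adjusted p = 1.000), with C3 at 0.11 (SE 0.37, adjusted p = 1.000). Without control litter 9_10 only 4 of 32 members were positive, the median was -0.23, and the 3 C1q genes alone had an unadjusted p under 0.05, with C1qa at -0.52 (SE 0.19, adjusted p = 0.430), C1qb at -0.59 (SE 0.25, adjusted p = 0.453) and C1qc at -0.52 (SE 0.22, adjusted p = 0.444). In that fit 1269 of 12634 genes had an unadjusted p under 0.05, so the share of members was not above that of all genes. Whether the 4 patterns differed from each other was tested within batch 2. There 0 of 12461 genes were called by edgeR (0%) and 0 of 32 members, with Cd68 as the only member at an unadjusted p under 0.05 (adjusted p = 0.655), and DESeq2 called no member either and had 1 at that level. The differences between patterns in the counts above are therefore not shown.

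The LDHA/B+CRMP1+STIP1 pattern was the only one present in both batches. In batch 1, with 16 exposed pups and 12 controls, 2 of 12415 genes were called (0.0161%) and 0 of 31 members, 19 of which were positive with a median of 0.07. In batch 2, with 9 pups and 12 controls, 0 of 12570 genes (0%) and 0 of 32 members were called, 31 of them positive with a median of 0.26. Without control litter 9_10 this became 16 of 32 with a median of 0.01 and none at an unadjusted p under 0.05, and without control litter 9_5 it was 31 of 32 with 0.48 and 9 at that level. With all animals no member had an unadjusted p under 0.05 in either batch (DESeq2 had 1 member in batch 1 and called no member). Cd163 was at 0.42 (SE 0.48, adjusted p = 0.988) in batch 1 and 0.94 (SE 0.58, adjusted p = 0.896) in batch 2, and Itgb2 at 0.45 (SE 0.23, adjusted p = 0.923) and 0.27 (SE 0.31, adjusted p = 0.935). The effect in batch 2 minus that in batch 1 was called for 14 of 12700 genes (0.11%) and for no member, and DESeq2 called 6 genes and no member. No member had an unadjusted p under 0.05 with either tool. Aif1, which encodes the actin-binding protein IBA1 used to stain microglia, came nearest, with a difference of 0.44 (SE 0.25, adjusted p = 1.000).

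The 24 controls alone show how the members stood between the batches. Of 12565 genes, 5218 differed (41.5%), but of the 32 members only C3 was called (3.12%). C3 was higher in batch 2, by 0.90 (SE 0.36, adjusted p = 0.0565) on the log2 scale, from 0, 0.313 and 0.716 CPM at the lowest, median and highest control of batch 1 to 0.214, 0.695 and 1.26 CPM in batch 2. The groups overlapped, with 11 of 12 batch 2 controls above the median of batch 1 and 5 above its highest. The call was lost without control litter IgG2 (0.85, adjusted p = 0.133) or RNA4 (0.88, adjusted p = 0.135) and with litter as a random effect (1.14, adjusted p = 0.250), and without control litter 9_25 C3 did not pass the filter. No batch 1 control exceeded 1 CPM, so C3 was tested only because of batch 2 pups, the group in which it was higher. With no filter on low counts C3 was at 0.89 (adjusted p = 0.0752). The exposed groups had C3 at 0.220 (0 to 0.609) CPM for LDHA/B+CRMP1+STIP1 in batch 1, and in batch 2 at 0.685 (0.142 to 1.18) for the same pattern, 0.642 (0.133 to 0.792) for CRMP1+CRMP2, 0.703 (0.446 to 1.11) for CRMP1+GDA and 0.737 (0.295 to 1.42) for STIP1+NSE.

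Over all 32 members the batches differed by a median of -0.09, with 14 positive. The standard errors of the members were larger than those of most genes, which limits what could be called: the median SE of the members in this comparison was 0.265 on the log2 scale, against 0.0795 for all genes. None of the 7 microglial sensors was called, with Cx3cr1 at -0.47 (SE 0.30, adjusted p = 0.238) and P2ry12 at -0.30 (SE 0.29, adjusted p = 0.459); 2 of the 7 were positive, or 6 without control litter 9_10, where Cx3cr1 was at -0.09. The border genes Mrc1, at 0.75 (SE 0.37, adjusted p = 0.118), and Cd163, at 0.79 (SE 0.52, adjusted p = 0.254), had positive values. Without control litter 9_10, 26 of 32 members were positive, the median was 0.26, and 4 were called, all higher in batch 2: C1qa (0.72, SE 0.20, adjusted p = 0.00827), Mrc1 (1.11, SE 0.41, adjusted p = 0.0452), C3 (1.12, SE 0.43, adjusted p = 0.0497) and Cd163 (1.31, SE 0.52, adjusted p = 0.0589). Cd163, like C3, passed the filter only through pups of batch 2 litter 9_25. For neither gene did a batch 1 control exceed 1 CPM, so both were tested only because of the batch in which they were higher. Over all genes 4979 of 12524 were called in that fit, a larger share than among the members. The values moved the other way without some other control litters. Without 9_5, 7 of 32 members were positive (median -0.24), and C3 (0.94) and Cx3cr1 (-0.76, adjusted p = 0.0523) were called, beside 5252 of 12523 genes. Without 9_25, 5 of 30 were positive (median -0.21), and Tlr4 was called at -1.09 (adjusted p = 0.0971), beside 3916 of 12502 genes. Itgam was called lower without IgG1 and Spp1 lower without RNA4, while Mrc1 was called higher without IgG2 or 9_15. The choroid plexus markers were all 10 higher in batch 2 with a median log2 fold change of 3.42, from a summed median of 14.8 (6.88 to 111) to 731 (140 to 2976) CPM. The meningeal markers had 2 of 11 called, 11 positive, and a median of 0.28, and the border macrophage markers had 1 of 4 called. Their part in the C3, Mrc1 and Cd163 levels was not tested.

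The remaining members fixed for a full account had these levels, as median with lowest and highest pup. Cx3cr1 is the receptor of fractalkine, which neurons release. The median Cx3cr1 level in batch 1 was 3.99 (1.65 to 5.36) CPM in controls and 3.92 (0.847 to 6.05) CPM in LDHA/B+CRMP1+STIP1. Batch 2 had 2.9 (0.228 to 5.43) CPM in controls, 4.67 (2.22 to 6.3) in CRMP1+CRMP2, 3.5 (1.96 to 5.5) in LDHA/B+CRMP1+STIP1, 3.41 (2.08 to 5.09) in CRMP1+GDA and 1.99 (0.906 to 6.36) in STIP1+NSE. P2ry12 senses nucleotides and guides microglial processes. P2ry12 had batch 1 medians of 3.74 (2.61 to 7.85) CPM in controls and 3.87 (0.782 to 5.56) CPM in LDHA/B+CRMP1+STIP1. The medians of batch 2 were 3.77 (0.418 to 6.96) CPM in controls, 3.91 (2.0 to 8.43) in CRMP1+CRMP2, 3.43 (1.61 to 6.23) in LDHA/B+CRMP1+STIP1, 4.06 (2.15 to 5.32) in CRMP1+GDA and 2.6 (1.37 to 8.03) in STIP1+NSE. Both genes had their widest range in STIP1+NSE, and every exposed group overlapped the controls of its batch.

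Csf1r was the most abundant member by CPM. Batch 1 pups had a median Csf1r level of 17.1 (11.4 to 27.4) CPM in controls and 19.6 (7.56 to 25) CPM in LDHA/B+CRMP1+STIP1. For batch 2 the levels were 17 (6.53 to 27) CPM in controls, 21.7 (16.7 to 46.9) in CRMP1+CRMP2, 14.5 (11.1 to 29.2) in LDHA/B+CRMP1+STIP1, 22.8 (12 to 25.8) in CRMP1+GDA and 17.2 (11.3 to 32.2) in STIP1+NSE. The highest value came from 1 CRMP1+CRMP2 pup of litter 9_6, which was also the highest of all 71 animals for Cd68 (5.17 CPM), Mrc1 (13.9 CPM) and Spp1 (17.2 CPM).

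The C1q chains are made in the brain chiefly by microglia. For C1qa the medians of batch 1 were 3.73 (2.54 to 7.06) CPM in controls and 4.22 (2.01 to 7.6) CPM in LDHA/B+CRMP1+STIP1. Those of batch 2 were 5.72 (1.18 to 9.99) CPM in controls, 5.43 (3.55 to 10.2) in CRMP1+CRMP2, 4.93 (3.82 to 8.34) in LDHA/B+CRMP1+STIP1, 5.89 (4.38 to 8.65) in CRMP1+GDA and 3.85 (3.18 to 6.98) in STIP1+NSE. The median C1qb level in batch 1 was 5.82 (4.1 to 9.65) CPM in controls and 6.23 (2.67 to 7.62) CPM in LDHA/B+CRMP1+STIP1. Batch 2 had 6.28 (1.82 to 12.8) CPM in controls, 7.18 (4.32 to 12.1) in CRMP1+CRMP2, 6.24 (4.34 to 9.85) in LDHA/B+CRMP1+STIP1, 8.17 (5.68 to 11) in CRMP1+GDA and 3.64 (2.82 to 12.3) in STIP1+NSE. For both genes the batch 2 controls had the widest range of all groups and overlapped each exposed group. C1qc had batch 1 medians of 4.61 (2.38 to 7.65) CPM in controls and 4.36 (1.3 to 6.51) CPM in LDHA/B+CRMP1+STIP1. The medians of batch 2 were 4.62 (2.0 to 9.12) CPM in controls, 5.21 (4.8 to 8.28) in CRMP1+CRMP2, 5.36 (3.22 to 8.08) in LDHA/B+CRMP1+STIP1, 6.5 (4.27 to 9.16) in CRMP1+GDA and 4.08 (2.57 to 7.98) in STIP1+NSE. For each of the 3 chains, CRMP1+GDA had the highest and STIP1+NSE the lowest median of the 4 patterns in batch 2, with ranges that overlapped.

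Cd163 takes up haemoglobin bound to haptoglobin and marks border macrophages. Batch 1 pups had a median Cd163 level of 0.360 (0 to 0.797) CPM in controls and 0.428 (0 to 2.11) CPM in LDHA/B+CRMP1+STIP1. For batch 2 the levels were 0.660 (0 to 1.95) CPM in controls, 0.902 (0.0720 to 2.51) in CRMP1+CRMP2, 0.755 (0.161 to 3.73) in LDHA/B+CRMP1+STIP1, 1.06 (0.332 to 1.35) in CRMP1+GDA and 0.862 (0.237 to 1.7) in STIP1+NSE. The highest value, in LDHA/B+CRMP1+STIP1, was the single pup of litter 9_24. Spp1 encodes osteopontin. For Spp1 the medians of batch 1 were 4.79 (1.13 to 9.27) CPM in controls and 3.88 (1.88 to 11.7) CPM in LDHA/B+CRMP1+STIP1. Those of batch 2 were 3.85 (1.93 to 7.23) CPM in controls, 5.87 (2.22 to 17.2) in CRMP1+CRMP2, 4.34 (1.29 to 10.8) in LDHA/B+CRMP1+STIP1, 4.77 (1.93 to 7.84) in CRMP1+GDA and 6.64 (2.86 to 9.27) in STIP1+NSE. Every exposed group overlapped the controls of its batch for both genes.

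Sex made no difference that the test could call. In males against females, 8 of 12477 genes were called (0.0641%), and 0 of 32 members by edgeR or by DESeq2. The pattern recognition receptor Tlr2 was the only member with an unadjusted p under 0.05, at 0.42 (SE 0.17, adjusted p = 0.991). The median was 0.09 with 24 of 32 positive. For C1qb the interval was -0.09 to 0.42 and for Cx3cr1 -0.14 to 0.53. Some litters held pups of 1 sex only. Among the batch 2 controls, litter 9_10 was 4 females, with a mean sum of the members of 62.6 CPM. Litter 9_25 was 4 males, with 121 CPM. In such litters sex and litter cannot be told apart, and the sex comparison was not run without them. With litter as a random effect, 25 of 32 members were positive with a median of 0.05.

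Other genes of the same pathways were tested in the same fits. Of 40 further complement genes, among them regulators and lectin pathway components, 37 were in the table. In CRMP1+CRMP2, 23 were tested, and the regulators Cd55 (-0.32, SE 0.11, adjusted p = 0.0842) and Cd46 (0.55, SE 0.21, adjusted p = 0.0982) were the only ones called, 1 lower and 1 higher. Among 11 ligands and signals to microglia, fractalkine, Cx3cl1, the ligand of Cx3cr1, was the only one called, lower at -0.29 (SE 0.09, adjusted p = 0.0457). Of 38 further microglial genes, 3 were called, all higher, with the adaptor Fyb1 at 0.76 (SE 0.21, adjusted p = 0.0360) and the GTPase Rac2 at 0.59 (SE 0.19, adjusted p = 0.0676). Of 15 genes of reactive or proliferative-region microglia, 1 was called, Cd83, lower at -0.35 (SE 0.11, adjusted p = 0.0627). Set against 11.4% of all genes, these shares were 2 of 23, 1 of 11, 3 of 38 and 1 of 15. In all exposed offspring and in the other 3 patterns no gene of these 4 lists was called.

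Between the batches of controls, where 41.5% of all genes were called, the shares of these lists called lay on both sides of that value. Of 23 complement genes 9 were called, 7 higher and 2 lower in batch 2, with the chaperone clusterin, Clu, at 0.85 (SE 0.13, adjusted p = 2.58e-05) and the lectin pathway protease Masp1 at -0.65 (SE 0.10, adjusted p = 2.87e-05), both of which brain cells other than microglia express. Of 11 ligands 4 were called, 3 higher and 1 lower, with Tgfb2 at -0.87 (SE 0.11, adjusted p = 1.86e-06) and Gas6 at 0.40 (SE 0.07, adjusted p = 5.14e-05). Of 35 further microglial genes 9 were called, 3 higher and 6 lower, with Arhgdib at -1.13 (SE 0.12, adjusted p = 6.59e-08) and the transcription factor Ikzf1 at -2.52 (SE 0.34, adjusted p = 3.2e-06). Of 15 genes of reactive or proliferative-region microglia 10 were called, 9 higher and 1 lower, with the lipase Lpl at 0.94 (SE 0.12, adjusted p = 1.71e-06) and the tetraspanin Cd63 at 0.50 (SE 0.08, adjusted p = 2.21e-05). Many genes of these lists are known from neurons, astrocytes or vessels as well.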

How the data were processed

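Total RNA from 1 coronal slice of each of 71 PND2 rat brains had been made into poly-A libraries and sequenced as paired ends. The authors aligned reads to rn7 with STAR 2.5.4b and used featureCounts for gene counting (options not given in the sources used here). The deposited values are raw gene counts, one column per animal, beside exon coordinates and exon length. Of the counts from 1 to 9, 74.5% were even, so both mates of a pair may have been counted, and counting errors here take a pair as 1 fragment. Whether strand was used in counting is not given, so reads of overlapping genes cannot be separated. Library totals ran from 24880182 to 36234952 counts (median 28439195), and intervals and counting errors cover counting or sampling error only.

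Groups, litters and sex came from the labels. Batch was assigned from the title series of the samples, matched to the groups that the study names for each batch. The study's methods also name a sample collection cohort, which was not used here because the labels used do not give it, and its part in the values was not tested. Genes needed 1 CPM in at least 8 of 71 animals (all exposed, sex), over 1 CPM in at least 2 (patterns, batches) or 1 CPM in at least 6 (differences among patterns). edgeR 4.0.16 (TMM, robust quasi-likelihood test, R 4.3.3) was run on the whole table with Benjamini-Hochberg adjustment and the FDR of 0.1 that the study used. The first surrogate variable (sva 3.50.0) was the covariate for all exposed and for each pattern, sex was the covariate for fits within batch, between batches and among patterns, and pattern with batch for the sex comparison. The script was tested on simulated counts. Levels of pairs and litters are log2 CPM with a prior count of 2, compared by exact or 100000-fold permutation. RPKM was computed from the counts and the exon length. Alternatives used DESeq2 1.42.0, limma 3.58.1, other scaling, filters and covariates, litter sums and each litter left out. P-values over animals measure the spread between pups, several of which share a dam. The members, gene lists and tests were chosen with earlier results of these data known. All 33 members are named, with values in every group for those called and for C1qa, C1qb, C1qc, C3, Cx3cr1, P2ry12, Csf1r, Mrc1, Cd163 and Spp1; of other lists at most the 2 called genes of smallest p are named. Promoters are from RefSeq (GRCr8), matched by symbol. No protein sequence was used here.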

Additional observations from a re-analysis of the deposited data

Results flagged for a closer look

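Within groups of 4 to 10 samples, 52 sets of values of the members called or described in full were examined for a sample far from the others, and 5 stood out. For independent sets chance gives about 1 in 20. Csf1r, Cd68 and Cd163 in CRMP1+CRMP2 were flagged for the same pup, so the sets were not independent and the count cannot be set against that share. In CRMP1+CRMP2, 1 male pup of litter 9_6 had 46.9 CPM of Csf1r (the next pup had 29), 5.17 CPM of Cd68 (next 3.01) and 2.51 CPM of Cd163 (next 1.21). Its border macrophage markers summed to 30.02 CPM, the highest of the 71 animals, and its meningeal markers to 1234 CPM, where the highest animal had 1555 CPM. Their part in its levels was not tested. In LDHA/B+CRMP1+STIP1 of batch 2, the single pup of litter 9_24 had 3.73 CPM of Cd163 (next 1.76). Among the 4 control litters of batch 2, litter 9_5 had a mean of 2.25 CPM of Cd68 (next 1.22).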

How the results depend on the processing

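The number of members called stayed at 0 under each alternative run for all exposed, LDHA/B+CRMP1+STIP1, CRMP1+GDA, STIP1+NSE, both within-batch comparisons, the interaction, sex and the differences among patterns. For CRMP1+CRMP2 it went from 2 to 1 with no filter on low counts, with batch and sex as covariates, with PC1 and PC2 as covariates or without control litter 9_10 (chosen after seeing the data), and to 0 with litter as a random effect, in batch 2 alone or with counts summed per litter. With each of the 4 CRMP1+CRMP2 litters left out it ran from 0 (without 9_6) to 3 (without 9_16). Control litters other than 9_10 were not left out of the fits of single patterns. Over all genes the calls in CRMP1+CRMP2 went from 1445 to 491, 2377, 2793, 33, 127 and 0 under batch and sex, PC1 and PC2, without 9_10, litter as a random effect, batch 2 alone and litter sums. With each of the 4 CRMP1+CRMP2 litters left out they ran from 41 to 2889. The other counts over all genes ran, over all alternatives with litters left out included, from 0 to 63 for all exposed (4 as reported), 0 to 44 for LDHA/B+CRMP1+STIP1 (2), 0 to 5 for CRMP1+GDA (0), 0 to 13 for STIP1+NSE (6), 0 to 20 and 0 to 2 for LDHA/B+CRMP1+STIP1 within batch 1 (2) and batch 2 (0), 0 to 16 for the interaction (14), 2833 to 5451 between batches (5218), 7 to 11 for sex (8) and 0 to 1 among patterns (0). Between batches of controls the members called went from 1 to 2 with DESeq2, 0 with litter as a random effect and 4 without 9_10, and from 1 to 4 with each litter left out. The log2 fold change of C1qb in all exposed (-0.01) turned to 0.022 with litter as a random effect, 0.0013 with batch and sex and 0.14 in batch 2 alone. With PC1 and PC2, C1qc turned to -0.048 and P2ry12 to -0.043. Without 9_10, C1qa turned to -0.058, C1qc to -0.14, Cx3cr1 to -0.055 and P2ry12 to -0.10. With each litter left out these values ran from -0.058 to 0.20 for C1qa, -0.16 to 0.10 for C1qb, -0.14 to 0.11 for C1qc, -0.055 to 0.21 for Cx3cr1 and -0.10 to 0.18 for P2ry12. The r of C3 and C3ar1 turned to 0.0179 after pattern and batch means were subtracted. The cause of these changes was not tested. Counts of 16 and 8 at the median limit C3 and C5ar1. No paired analysis was possible because the labels number animals within a title series or litter and give no numbers that pair exposed with control animals.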
